A study of Mus musculus with 17 samples.

Results

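Prnp, Prnd, Lamr1-ps1, Rassf2 and Slc23a2 are 5 genes that lie next to each other on mouse chromosome 2, around the gene of the prion protein. They were taken by symbol from a table of raw read counts of 56953 genes in prefrontal cortex, and all 5 were found. They were chosen by their levels in mice with a tau transgene against wild-type mice, so for these genes the comparisons of either transgenic genotype with WT are given as descriptions with no test. The comparison of the 2 transgenic genotypes was tested, although it shares the hTau libraries with the comparison that chose the genes.

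The libraries came from 8-month-old B6C3F1/J mice of both sexes and 3 genotypes, with 5 WT, 6 hTau and 6 CgA-KO/hTau mice, 1 library each. hTau mice, also called PS19, are heterozygous for a transgene on chromosome 3 in which the Prnp promoter drives a human tau isoform with the P301S mutation. CgA-KO/hTau mice carry the same transgene and in addition lack Chga, the chromogranin A gene, congenitally and in the whole body. A mouse with the Chga deletion and without the transgene was not analysed here, so any effect of the deletion can be read only among transgene carriers. All mice were fed a regular chow diet.

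The prion protein is a cell-surface glycoprotein, held in the membrane by a glycosylphosphatidylinositol (GPI) anchor and abundant in neurons, and its misfolded form causes prion disease. Because the Prnp promoter is active across the brain, it is widely used to express transgenes there. Prnd encodes doppel, a relative of the prion protein that acts mainly in the testis. Lamr1-ps1 is a processed pseudogene, a reverse-transcribed copy of the laminin receptor gene Rpsa, whose product is also a protein of the small ribosomal subunit. Rassf2 encodes a Ras-association domain protein that binds the Hippo kinases, and Slc23a2 the sodium-dependent vitamin C transporter of the brain.

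The order along the chromosome, in GRCm38 coordinates from GENCODE M21, was Lamr1-ps1 (chr2:131904086-131904959, plus strand), Prnp (chr2:131909928-131938429, plus strand), Prnd (chr2:131950861-131956130), Rassf2 and Slc23a2. Lamr1-ps1 ended 5.0 kb before the start of Prnp. Rassf2 lay 51.0 kb and Slc23a2 114.1 kb beyond the end of Prnp, both on the minus strand. The 250 bases before the annotated start of Prnp are printed because the transgene uses the promoter of this gene. They are at chr2:131909678-131909927 on the plus strand, from the RefSeq promoter table on GRCm38, with the letters GGGCGG, or the same letters on the other strand, in capitals.

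Prnp upstream: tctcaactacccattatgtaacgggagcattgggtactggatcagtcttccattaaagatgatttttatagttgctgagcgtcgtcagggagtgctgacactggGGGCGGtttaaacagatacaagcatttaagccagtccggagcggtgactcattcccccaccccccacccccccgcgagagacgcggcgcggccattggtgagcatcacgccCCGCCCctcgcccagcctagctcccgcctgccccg

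The window had a GC content of 58.8% and held GGGCGG, a GC box, 2 times on either strand, with the first bases 146 and 35 bases before the start. The letters CCAAT occurred 2 times and TATAAA 1 time, none overlapping a GC box. Among 32544 RefSeq mouse promoters of the same length, 33% held GGGCGG, 33.8% held CCAAT and 12.3% held TATAAA on either strand. These matches describe the letters and show no binding.

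Lamr1-ps1 and its parent gene are shown side by side because reads of one could in principle be counted for the other. Over 847 aligned bases, Lamr1-ps1 was 76.9% identical to the Rpsa transcript, and over 9 Rpsa pseudogenes the identity was 71.8% to 76.3%. The lines below give Lamr1-ps1 bases 60 to 179 (chr2:131904145-131904264, plus strand) and the aligned Rpsa coding bases 66 to 185, from GENCODE M21. Capitals mark the 36 positions of 120 at which they differ. The stretch was chosen as the ungapped one of this length with the most differences. Identity over the whole alignment with the coding sequence was 76.2%.

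Lamr1-ps1: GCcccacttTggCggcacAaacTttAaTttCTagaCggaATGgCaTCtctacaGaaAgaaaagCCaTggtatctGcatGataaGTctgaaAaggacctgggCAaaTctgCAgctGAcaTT
Rpsa coding sequence: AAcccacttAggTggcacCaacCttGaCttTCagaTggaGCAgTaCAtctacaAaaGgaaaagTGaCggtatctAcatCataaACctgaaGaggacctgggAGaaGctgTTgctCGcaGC

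None of the 775 windows of 100 bases in Lamr1-ps1 occurred in the GENCODE M21 transcript of another gene. The sequencing reads were 100 bases long, so a read that matches Lamr1-ps1 in full differs from all other transcripts of that release. That release matched 52029 of the 56953 genes counted, so transcripts of the rest may not have been searched.

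Depth was uneven, with 8838334 counts in WT replicate 4 and 227651681 in hTau replicate 6. Counts of 3 were more frequent than counts of 2 in every library, as if about 3 counts stood for 1 fragment. The limit that a count of 0 allows was therefore taken as 3 fragments, or 9 counts, over the libraries of a group, and it covers counting error only. Levels are counts per 1000000 counts (CPM) on library sizes scaled by the trimmed mean of M values. Chga had 163 ± 11.9 CPM in WT (SD, n = 5), 168 ± 6.68 CPM in hTau (SD, n = 6) and a count of 0 in all 6 CgA-KO/hTau libraries. The libraries differed in tissue content too. The summed level of 15 striatum markers ranged from 1340 to 3410 CPM in WT, 218 to 391.6 CPM in hTau and 254 to 1870 CPM in CgA-KO/hTau, with no marker at 0, and 14 of the 15 were called lower in hTau than in WT. Over all genes, 911 of 23062 were called lower in that comparison. The Y-linked gene Ddx3y reached 49.8 CPM or more in the libraries numbered 1, 2 and 3, whatever the genotype, and stayed at or under 0.0582 CPM in the rest.

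Prnp, the most abundant of the 5 genes per kilobase of exon in each genotype, was higher in every library with the transgene than in every WT library. In WT it had 843, 914.5, 774, 748 and 884 CPM in replicates 1 to 5. In hTau the lowest, median and highest libraries had 1974, 2046 and 2368 CPM. In CgA-KO/hTau they had 1236, 1512 and 2079 CPM. The lowest transgenic library therefore lay above the highest WT library, while the 2 transgenic genotypes overlapped through CgA-KO/hTau replicate 4, the highest library of that genotype. WT averaged 833 ± 71.0 CPM (SD, n = 5), hTau 2119 ± 174 CPM and CgA-KO/hTau 1561 ± 321 CPM (SD, n = 6 each). The level in hTau was 2.55-fold that in WT, a log2 difference of 1.35 (SE 0.13), and that in CgA-KO/hTau 1.87-fold, a log2 difference of 0.91 (SE 0.13). Over all 23062 genes tested, 78 had every transgenic library above every WT library, which is 0.338%. Counts per gene do not separate transcripts of the Prnp gene from transcripts of the transgene that carry Prnp sequence, so the 2 sources cannot be told apart.

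Prnp was lower with the Chga deletion. From hTau to CgA-KO/hTau the mean of Prnp fell by 26.3%, a log2 difference of -0.44 (SE 0.12, edgeR adjusted p = 0.0304). Of all genes, 9.72% were called in this comparison. The adjusted p was above 0.05 when hTau replicate 2 (0.0718) or 3 (0.0616), or CgA-KO/hTau replicate 1 (0.0685), 2 (0.0759) or 3 (0.0661) was left out, with log2 differences of -0.41 to -0.38. It was also above 0.05 with a striatum score (-0.28, adjusted p = 0.124) or a neuron score (-0.27, adjusted p = 0.121) in the fit, with a replicate block (-0.45, adjusted p = 0.0913), and with the most similar libraries summed (-0.43, adjusted p = 0.141). Summed striatum markers were at 218 to 391.6 CPM in hTau and 254 to 1870 CPM in CgA-KO/hTau, and 9 neuron markers at 10190 to 11250 and 6491 to 15330 CPM. In a bulk sample, fewer cells that express a gene and less RNA per cell cannot be told apart.

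**Figure D1:**
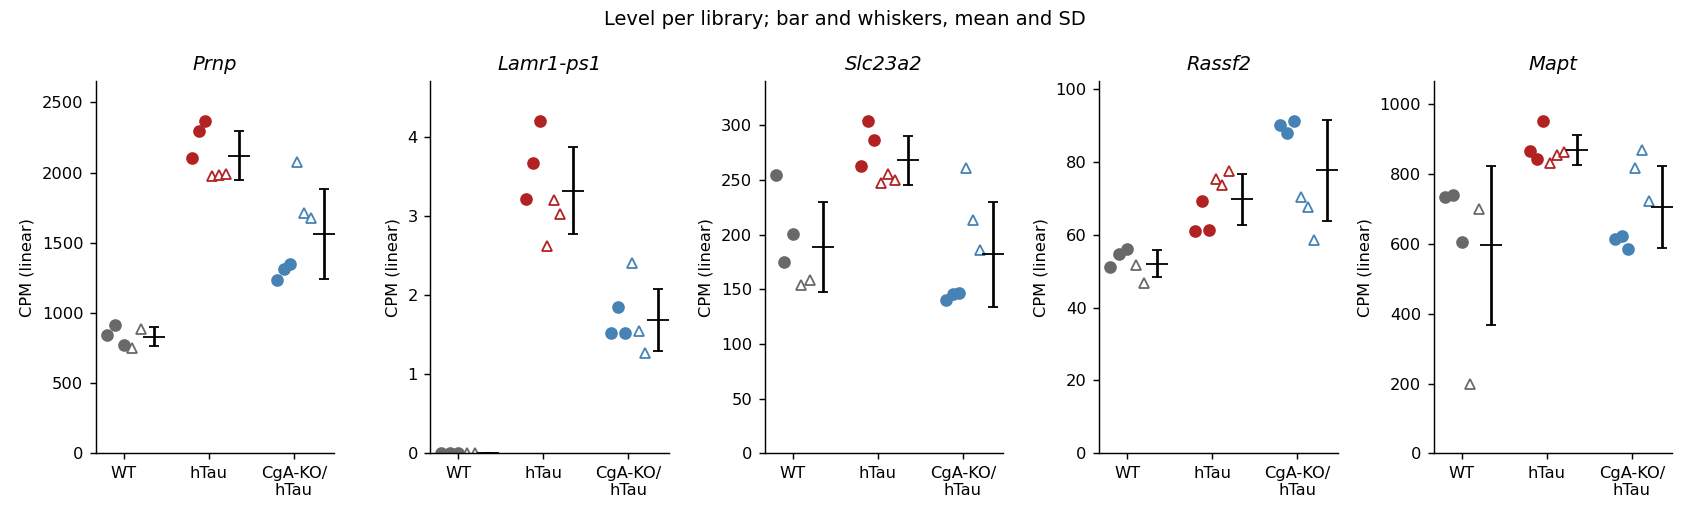
Level of Prnp, Lamr1-ps1, Slc23a2, Rassf2 and Mapt in CPM (linear axes) in each of 5 WT, 6 hTau and 6 CgA-KO/hTau libraries, with the mean and SD as a black bar and whiskers. Filled circles are libraries with Ddx3y at 1 CPM or more and open triangles the others, and Lamr1-ps1 sits at 0 in all 5 WT libraries.

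Lamr1-ps1 was read in every transgenic library and in no WT library. The count was 0 in all 5 WT libraries, which allows up to 0.0221 CPM over the group. In hTau it had a summed count of 2968, and the lowest, median and highest libraries had 2.62, 3.20 and 4.20 CPM. In CgA-KO/hTau the summed count was 853, with 1.27, 1.54 and 2.40 CPM. Every CgA-KO/hTau library thus lay below every hTau library, and both lay apart from WT. The mean of 3.32 ± 0.548 CPM in hTau (SD, n = 6) was at least 150-fold higher than the WT limit. The mean of 1.69 ± 0.396 CPM in CgA-KO/hTau (SD, n = 6) was at least 76.4-fold higher than that limit. WT replicate 4 alone, the shallowest library, would allow up to 1.03 CPM.

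Between the 2 transgenic genotypes, Lamr1-ps1 in CgA-KO/hTau was 0.508 times its level in hTau, a log2 difference of -0.97 (SE 0.19, edgeR adjusted p = 0.00819). Of all genes tested, 874 had every CgA-KO/hTau library below every hTau library, which is 3.79%. The call was kept without any library in turn. It was lost when the most similar libraries, hTau replicates 4 to 6 and CgA-KO/hTau replicates 1 and 3, were each summed to 1 (log2 difference -1.02, edgeR adjusted p = 0.0751).

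Lamr1-ps1 fell more than Prnp did. For every 1000 CPM of Prnp there were 1.56 ± 0.143 CPM of Lamr1-ps1 in hTau (SD, n = 6) and 1.10 ± 0.233 CPM in CgA-KO/hTau (SD, n = 6). The difference of -0.461 had p = 0.00433 in a two-sided exact permutation test of 6 against 6 libraries, in which the smallest possible p is 0.00216. The ratio ranged from 1.33 to 1.77 in hTau and from 0.758 to 1.41 in CgA-KO/hTau, where replicates 1 and 2 were the highest. Taken over the Prnp above the WT mean, the group means came closer, but no CgA-KO/hTau library lay within the range of hTau. Replicates 1, 2 and 3 of CgA-KO/hTau, which had Ddx3y, were at 3.76, 3.84 and 2.96, above the highest hTau library (2.78). Replicates 4, 5 and 6 were at 1.93, 1.77 and 1.51, below the lowest hTau library (2.29). Per 1000 CPM of Prnp above the WT mean there were 2.57 ± 0.177 CPM of Lamr1-ps1 in hTau (SD, n = 6) and 2.63 ± 1.03 CPM in CgA-KO/hTau (SD, n = 6), with a range of 1.51 to 3.84 in the latter.

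**Figure D2:**
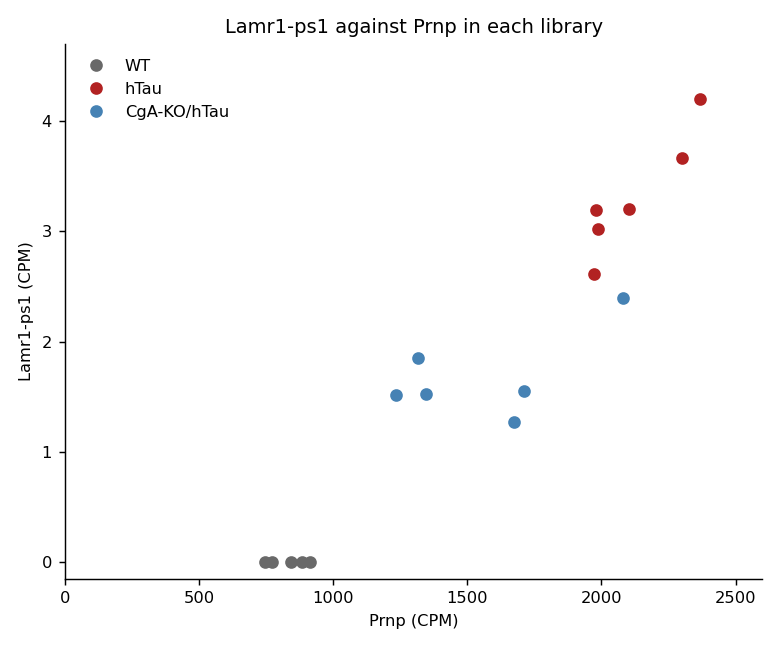
Lamr1-ps1 against Prnp, both in CPM on linear axes, with 1 point per library and a colour per genotype. The 5 WT libraries lie at 0 for Lamr1-ps1 and at or below 914.5 CPM for Prnp, the 6 hTau libraries lie at 2.62 CPM of Lamr1-ps1 or more, and the 6 CgA-KO/hTau libraries lie between.

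Among the 6 hTau libraries, Prnp and Lamr1-ps1 varied together, with Pearson's r = 0.91 (exact permutation p = 0.00417, 0.025 after adjustment over 6 relations). Spearman's rho was 0.94 (exact permutation p = 0.0167, adjusted 0.1). Without the 2 libraries farthest from the median of Prnp r was 0.53, so the relation rests on those libraries. Among the 6 CgA-KO/hTau libraries r was 0.46 (exact permutation p = 0.379, adjusted 0.455) and rho was 0.43 (exact permutation p = 0.419, adjusted 0.497).

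Over all 17 libraries, Lamr1-ps1 was the gene whose log2 level was most like that of Prnp, with r = 0.963 among 15474 genes of at least 1 CPM on average. Gm2464 (0.902), Myrip (0.901), Arnt2 (0.892) and Myl6b (0.889) came next. The genes most like Lamr1-ps1 after Prnp were Vsig2 (0.9), Gm2464 (0.888), Adcy1 (0.875) and Arnt2 (0.869). These values include the difference between genotypes that chose the 2 genes, and the libraries share depth and tissue content. Once each genotype's mean was subtracted, Lamr1-ps1 was at rank 2948 for Prnp (r = 0.513). Sprn, which encodes shadoo, a further relative of the prion protein, was at rank 19 (r = 0.91).

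Rpsa and its other pseudogenes were not read in carriers only. The 10 other genes of this list that passed the filter on low counts had counts in WT as well. Between hTau and WT 0 of the 10 were called by edgeR, DESeq2 or limma voom, where edgeR called 5.9% of all genes. At an unadjusted p under 0.05, 2 were higher. Their median log2 difference was 0.44 against 0.01 over all genes. Rpsa had 156 ± 37.9 CPM in WT (SD, n = 5), 197 ± 32.0 CPM in hTau and 241 ± 73.9 CPM in CgA-KO/hTau (SD, n = 6 each), and it was not called in any of the 3 comparisons (edgeR adjusted p = 0.372, 0.347 and 0.0796 for hTau minus WT, CgA-KO/hTau minus hTau and CgA-KO/hTau minus WT). From hTau to CgA-KO/hTau 3 of the 10 rose, where 9.72% of all genes were called, while Lamr1-ps1 fell. They were Rpsa-ps9 (log2 difference 0.72, SE 0.18), Rpsa-ps10 (0.49, SE 0.14) and Rpsa-ps4 (1.0, SE 0.3), with edgeR adjusted p of 0.0212, 0.0359 and 0.0413. Against WT, 6 of the 10 were higher in CgA-KO/hTau, where 6.46% of all genes were called in either direction. Pseudogenes are copies of their parent gene, and how reads that match several of them were counted is not given in the sources used here, so these counts are uncertain.

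Prnd was not detectable at this depth. It had a count of 0 in 16 of the 17 libraries and of 1 in CgA-KO/hTau replicate 3, too few to be tested. The group limits of a count of 0 were 0.0221 CPM in WT and 0.0102 CPM in hTau, and CgA-KO/hTau lay under its limit of 0.0184 CPM. Prn, the annotated read-through of Prnp and Prnd (chr2:131909957-131956130), shares exons with both and its counts are uncertain. It had means of 0.0706 CPM in WT, 0.186 CPM in hTau and 0.191 CPM in CgA-KO/hTau, with edgeR adjusted p of 0.416, 0.95 and 0.381 for hTau minus WT, CgA-KO/hTau minus hTau and CgA-KO/hTau minus WT.

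Rassf2 was higher in every transgenic library than in every WT library, by a smaller factor than Prnp. WT replicates 1 to 5 had 51.0, 54.8, 56.1, 51.7 and 46.9 CPM. The lowest, median and highest libraries had 61.1, 71.4 and 77.4 CPM in hTau and 58.6, 79.1 and 91.2 CPM in CgA-KO/hTau. The 2 transgenic genotypes overlapped, and the lowest library of either was above the highest WT library. The means were 52.1 ± 3.60 CPM in WT (SD, n = 5), 69.7 ± 7.05 CPM in hTau and 77.6 ± 13.9 CPM in CgA-KO/hTau (SD, n = 6 each). The log2 difference from WT was 0.42 (SE 0.12) in hTau and 0.58 (SE 0.12) in CgA-KO/hTau. Between the transgenic genotypes it was 0.16 (SE 0.11), which did not pass the test (edgeR adjusted p = 0.374).

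Slc23a2 was highest on average in hTau, and its means in WT and CgA-KO/hTau were close to each other. WT replicates 1 to 5 had 254, 175, 201, 154 and 159 CPM. The lowest, median and highest libraries had 247.5, 259.5 and 304 CPM in hTau and 141, 166 and 261 CPM in CgA-KO/hTau. WT replicate 1 and CgA-KO/hTau replicate 4 lay within the range of hTau, and all other libraries of these genotypes lay below it. The means were 189 ± 41.1 CPM in WT (SD, n = 5), 268 ± 22.6 CPM in hTau and 182 ± 48.1 CPM in CgA-KO/hTau (SD, n = 6 each). The log2 difference was 0.51 (SE 0.16) for hTau minus WT and -0.05 (SE 0.16) for CgA-KO/hTau minus WT.

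From hTau to CgA-KO/hTau Slc23a2 fell by 0.56 on the log2 scale (SE 0.16, edgeR adjusted p = 0.0328). The adjusted p was above 0.05 without hTau replicate 1 (0.0507), 2 (0.0757), 3 (0.0579), 5 (0.0542) or 6 (0.0513), or without CgA-KO/hTau replicate 1 (0.0753), 2 (0.0813) or 3 (0.0702). In all, 3 of the 4 members that could be tested were called lower in CgA-KO/hTau. Over all genes, 974 of 23062 were called lower and 9.72% in either direction. The members are neighbours, and this comparison shares the hTau libraries with the one that chose them, so their count is a description.

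Per kilobase of annotated exon, the mean level in hTau was 904 CPM for Prnp, 33.7 CPM for Slc23a2, 5.81 CPM for Rassf2 and 3.80 CPM for Lamr1-ps1. Mapt, the mouse tau gene, had 115 CPM per kilobase on the same scale. The order among the members was the same in CgA-KO/hTau, with 666, 22.9, 6.47 and 1.93 CPM per kilobase. It was also kept in WT, with 355 CPM for Prnp, 23.7 CPM for Slc23a2, 4.34 CPM for Rassf2 and 0 for Lamr1-ps1. On this scale neighbouring members in the order differed by more than their SD in each genotype.

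The Chga deletion was also compared within 2 classes of libraries by Ddx3y. This split was added after the data were seen. The differences between the classes come from an interaction term in edgeR. They and the adjusted p within each class are descriptions only. In CgA-KO/hTau, Prnp had 1300 ± 57.8 CPM in the 3 libraries with Ddx3y and 1822 ± 223 CPM in the 3 without, and in hTau 2256 ± 138 CPM and 1981 ± 7.64 CPM (SD, n = 3 each). The log2 difference between CgA-KO/hTau and hTau was -0.78 in libraries with Ddx3y (edgeR adjusted p = 0.000619) and -0.14 in the others (adjusted p = 0.623). The 2 differed by -0.67 (SE 0.14). Slc23a2 went the same way, with -0.97 (adjusted p = 0.00125) and -0.21 (adjusted p = 0.499) and a difference between the classes of -0.79 (SE 0.19).

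Rassf2 went the other way, with log2 differences of 0.5 in libraries with Ddx3y (edgeR adjusted p = 0.0028) and -0.22 in the others (adjusted p = 0.393). The classes differed by 0.69 (SE 0.13). Lamr1-ps1 was lower in both, by -1.17 (adjusted p = 0.00588) and -0.76 (adjusted p = 0.324), and the classes differed by -0.44 (SE 0.35). The ratio of Lamr1-ps1 to Prnp differed by -0.375 and -0.546 in the 2 classes, where the exact permutation test of 3 against 3 libraries cannot go below the p of 0.1 found in each. Over all genes, edgeR called a difference between the classes in 2687 of 23062.

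Tissue markers split along the same line. In CgA-KO/hTau, the libraries with Ddx3y had 505 to 1873 summed CPM of striatum markers against 254 to 450 in the others. The 9 neuron markers summed to 6491 to 9544 CPM against 10750 to 15330, and the 8 oligodendrocyte markers to 2692 to 3060 CPM against 1622 to 1754, with no marker at 0. With a striatum score in the fit, the log2 difference between CgA-KO/hTau and hTau was -0.28 for Prnp (edgeR adjusted p = 0.124) and -0.35 for Slc23a2 (adjusted p = 0.153), while Lamr1-ps1 kept its call at -0.88 (adjusted p = 0.0452). With that score, hTau minus WT was 0.93 for Prnp and -0.05 for Slc23a2. The score ran from 0.983 to 2.32 in WT and from -1.36 to -1.14 in hTau, with no overlap. In that comparison the fit extrapolates, and tissue content and genotype cannot be told apart. What tissue content and sex each contribute was not tested.

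**Figure D3:**
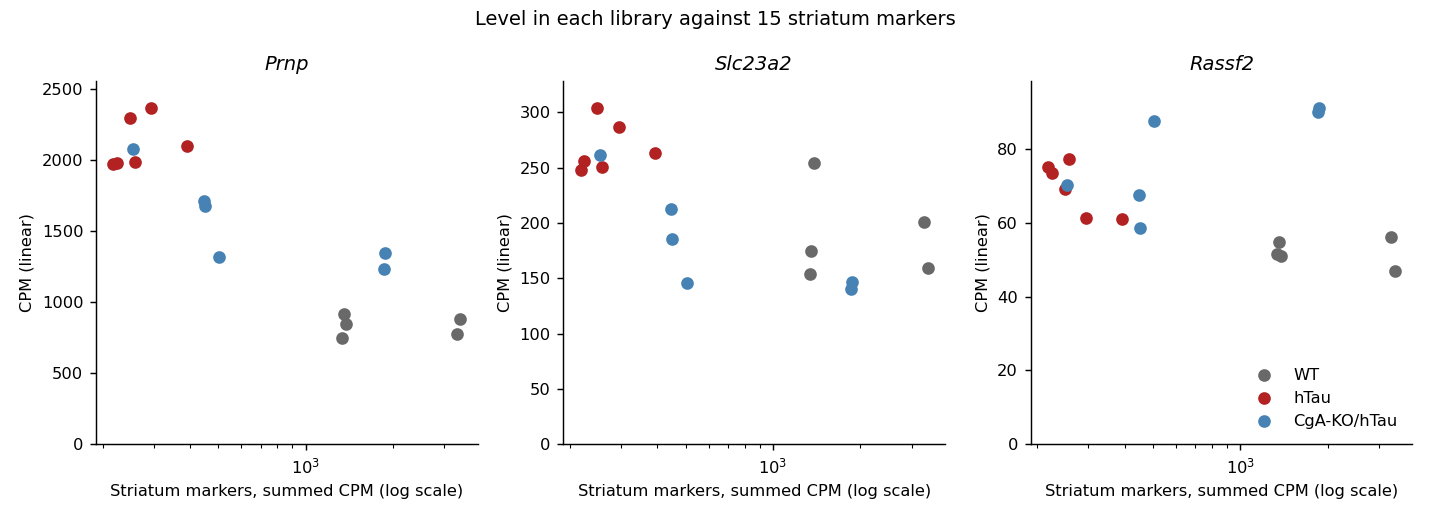
Level of Prnp, Slc23a2 and Rassf2 in CPM (linear axes) against the summed CPM of 15 striatum markers (log axis), with 1 point per library and a colour per genotype. The hTau libraries lie at 218 to 391.6 summed CPM, the WT libraries at 1340 to 3410, and the CgA-KO/hTau libraries from 254 to 1870.

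Within 1 Mb lay 57 other annotated genes, of which 34 passed the filter. Between hTau and WT 1 was called higher and 2 lower, where 5.9% of all genes were called. Between CgA-KO/hTau and hTau, where 9.72% of all genes were called, edgeR called 0 higher and 1 lower (2 and 4 at an unadjusted p under 0.05, and 1 and 2 called by DESeq2). Between CgA-KO/hTau and WT, where 6.46% were called, edgeR called 0 higher and 2 lower (1 and 6 at an unadjusted p under 0.05, and 1 and 2 by DESeq2). Limma voom called 3 higher and 5 lower, 3 and 3, and 1 and 2 in hTau minus WT, CgA-KO/hTau minus hTau and CgA-KO/hTau minus WT. Their median log2 differences were -0.05, 0.0 and 0.08. With negative distances lying before Prnp, the nearest tested genes on that side were Erv3 (-50.2 kb), 5330413P13Rik and Gm14281 (-62.2 kb each). On the other side the nearest beyond Slc23a2 were Tmem230 (301.1 kb) and Pcna (310.7 kb). None of these 5 was called in any comparison.

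Adra1d, which encodes the alpha-1D adrenergic receptor and lies at -347.6 kb, had 14.2 CPM in WT, 40.3 CPM in hTau and 15.4 CPM in CgA-KO/hTau. It was higher in hTau than in WT by 1.49 on the log2 scale (SE 0.38, edgeR adjusted p = 0.0263) and fell by 1.39 from hTau to CgA-KO/hTau (SE 0.36, adjusted p = 0.0229). The fall was the only call within 1 Mb in that comparison, and it was not firm. It was lost with a replicate block, with the most similar libraries summed, and without CgA-KO/hTau replicate 1 or 2. It was also lost in the libraries with Ddx3y under 1 CPM. Prokr2, a prokineticin receptor gene 399.3 kb beyond Prnp, had 6.56, 1.76 and 1.99 CPM in WT, hTau and CgA-KO/hTau. It was lower than in WT in both, by -1.89 (edgeR adjusted p = 0.00151) and -1.71 (adjusted p = 0.00457). Lrrn4, a leucine-rich repeat gene 929.9 kb beyond Prnp, had 1.15, 0.221 and 0.478 CPM, with differences from WT of -2.43 (edgeR adjusted p = 0.00128) and -1.29 (adjusted p = 0.0474). In the libraries with Ddx3y alone, 0 genes within 1 Mb were called for hTau minus WT, so Adra1d, Prokr2 and Lrrn4 were not called there. For CgA-KO/hTau minus WT, 1 gene within 1 Mb was called in place of 2 under 19 of 32 alternatives.

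**Figure D4:**
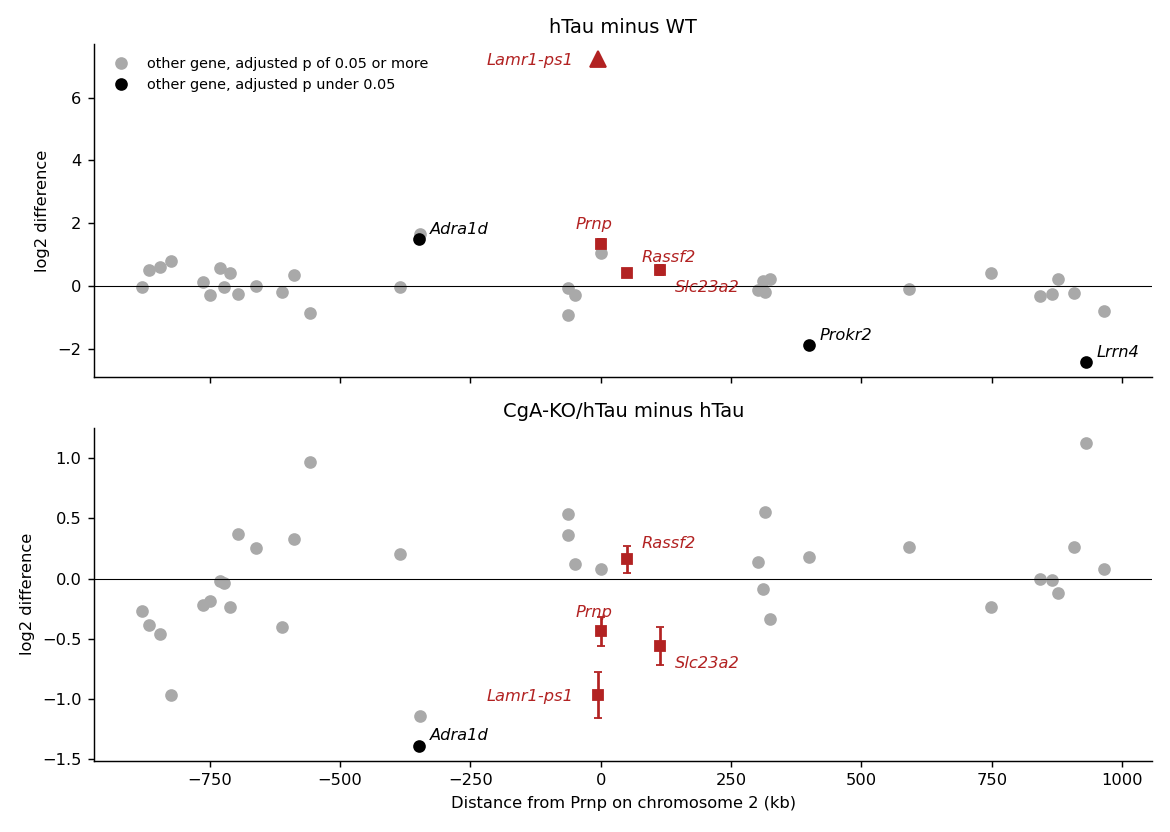
Log2 difference between genotypes against the distance from Prnp in kb, for hTau minus WT and CgA-KO/hTau minus hTau, with the members as red squares with SE and 34 other tested genes as circles, black where the adjusted p was under 0.05. The red triangle is the lower bound for Lamr1-ps1 against WT (7.23), and Adra1d, Prokr2 and Lrrn4 are the other genes called in hTau minus WT.

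Tau itself was read through Mapt, which lies on another chromosome. WT replicates 1 to 5 had 733, 740, 606, 199 and 701 CPM. The lowest, median and highest libraries had 831, 859 and 952 CPM in hTau and 584, 672 and 868 CPM in CgA-KO/hTau. Every hTau library lay above every WT library, and CgA-KO/hTau overlapped both. The log2 differences were 0.54 (SE 0.23) for hTau minus WT, -0.3 (SE 0.22) for CgA-KO/hTau minus hTau and 0.24 (SE 0.23) for CgA-KO/hTau minus WT, and none passed the test (edgeR adjusted p = 0.184, 0.387 and 0.595). Without WT replicate 4 hTau minus WT was 0.32 and CgA-KO/hTau minus WT was 0.02. In libraries with Ddx3y CgA-KO/hTau minus hTau was -0.53 (edgeR adjusted p = 0.00403). The transgene is human, and how far its reads were counted for mouse Mapt was not tested. Prnp and Mapt had r = 0.64 among hTau libraries (exact permutation p = 0.128, adjusted 0.192), with rho = 0.66 (exact permutation p = 0.175, adjusted 0.35). Among CgA-KO/hTau libraries r was 0.87 (exact permutation p = 0.0389, adjusted 0.117) and rho was 0.77 (exact permutation p = 0.103, adjusted 0.308). Without the 2 libraries farthest from the median of Prnp, r was 0.62 and 0.9.

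Sprn was not called between hTau and WT. It had 197 ± 23.4 CPM in WT (SD, n = 5), 214 ± 19.7 CPM in hTau and 155 ± 38.7 CPM in CgA-KO/hTau (SD, n = 6 each). The log2 difference was 0.12 (SE 0.14, edgeR adjusted p = 0.688) for hTau minus WT and -0.47 (SE 0.14, adjusted p = 0.0398) for CgA-KO/hTau minus hTau. The latter was -0.9 in libraries with Ddx3y and -0.1 in the others, a difference between the classes of -0.84 (SE 0.13).

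Among 24 genes listed as possible partners of the prion protein, 1 rose and 4 fell from WT to hTau by edgeR, where 5.9% of all genes were called. Whether the products of these genes bind the prion protein was not tested. What the difference in striatum markers between WT and hTau contributes to the calls of this and the following lists was not tested either. Lrp1, an endocytic receptor, rose by 0.39 (SE 0.11, edgeR adjusted p = 0.0372). The potassium channel gene Kcna4 fell by 1.0 (SE 0.14, adjusted p = 0.000439), the glutamate receptor gene Grm5 by 0.67 (SE 0.13, adjusted p = 0.00397) and the neurotrophin receptor gene Ngfr by 1.44 (SE 0.28, adjusted p = 0.00535). The adhesion gene Ncam1 fell as well. From hTau to CgA-KO/hTau 0 rose and 2 fell by edgeR, where 9.72% of all genes were called. The 2 were the proteoglycan gene Gpc1 by 0.65 (SE 0.2, edgeR adjusted p = 0.0423) and Lrp1 by 0.39 (SE 0.1, adjusted p = 0.023). DESeq2 called 0 higher and 4 lower, limma voom 0 and 7, and an unadjusted p under 0.05 gave 0 and 8. From WT to CgA-KO/hTau Kcna4, Dpp6, Grm5 and Ncam1 fell by edgeR, where 6.46% of all genes were called. The list's median log2 difference was -0.04, -0.17 and -0.26 in hTau minus WT, CgA-KO/hTau minus hTau and CgA-KO/hTau minus WT, against 0.01, 0.026 and 0.009 over all genes.

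Of 8 genes listed for possible cleavage or release of the prion protein, edgeR called 1 between CgA-KO/hTau and hTau, against 9.72% of all genes. It was Gde1, a phosphodiesterase gene, which fell by 0.38 (SE 0.1, edgeR adjusted p = 0.0277). Whether its product acts on the prion protein was not tested. From WT to CgA-KO/hTau edgeR called 0 of the 8, against 6.46% of all genes, while DESeq2, limma voom and an unadjusted p under 0.05 each found 1 lower. From WT to hTau 0 were called by the 3 tools, where edgeR called 5.9% of all genes. An unadjusted p under 0.05 found 1 higher and 1 lower. Of 27 tested genes that make or attach the GPI anchor, edgeR called 2 between hTau and WT, a share near the 5.9% of all genes. Pigz, a mannosyltransferase gene, rose by 1.03 (SE 0.2, edgeR adjusted p = 0.00579) and Pgap1, an inositol deacylase gene, fell by 0.5 (SE 0.12, adjusted p = 0.0195). From hTau to CgA-KO/hTau Pigz was the one gene of the 27 called, against 9.72% of all genes, and it fell by 0.81 (SE 0.19, edgeR adjusted p = 0.0163). From WT to CgA-KO/hTau it was Pgap1, which fell by 0.45 (SE 0.12, edgeR adjusted p = 0.0333), against 6.46% of all genes. The medians of this list were -0.04, 0.02 and -0.08 in hTau minus WT, CgA-KO/hTau minus hTau and CgA-KO/hTau minus WT.

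Relatives of Rassf2 were called at 2, 4 and 1 of 18 genes in hTau minus WT, CgA-KO/hTau minus hTau and CgA-KO/hTau minus WT, against 5.9%, 9.72% and 6.46% of all genes. Of these 18 other genes of the RASSF family and the Hippo kinases, Rassf3 (log2 difference 0.9, SE 0.24, edgeR adjusted p = 0.034) and Rassf4 (0.67, SE 0.16, adjusted p = 0.0177) were higher in hTau than in WT. From hTau to CgA-KO/hTau 2 fell, Rassf4 (-0.89, SE 0.15, edgeR adjusted p = 0.00295) and Rassf5 (-0.5, SE 0.12, adjusted p = 0.0207). Rassf6 (0.94, SE 0.23, edgeR adjusted p = 0.0202) and the kinase gene Lats1 (0.26, SE 0.07, adjusted p = 0.0251) rose. Wwtr1, a co-activator gene of the pathway, was the one called between CgA-KO/hTau and WT (0.75, SE 0.21, edgeR adjusted p = 0.0371). Of the 5 other genes of vitamin C and hexose transport, among them Slc23a1, Slc2a1 and Slc2a3, 0 were called by edgeR or DESeq2 in any comparison. The shares of all genes called by edgeR were again 5.9%, 9.72% and 6.46%. Limma voom and an unadjusted p under 0.05 each found 1, lower in CgA-KO/hTau than in WT.

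Few genes shared the pattern of Lamr1-ps1, a gene itself chosen by its levels against WT, so this is a description. Of 56953 genes, 39993 had a count in any library. Of these, 3 had a count of 0 in every WT library and a count above 0 in every transgenic library, and 0 had the reverse. Beside Lamr1-ps1 these were 4930590L14Rik, a long non-coding RNA gene (chr3:140951876-140953247, plus strand), and Gm48958 on chromosome 14, which had too few counts to be tested. They were picked by this pattern after the values were seen, so no test against WT is given for them. 4930590L14Rik had 0.725 ± 0.194 CPM in hTau and 1.04 ± 0.4 CPM in CgA-KO/hTau (SD, n = 6 each), at least 32.8-fold and 47.3-fold higher than the WT limit of 0.0221 CPM. Between the transgenic genotypes it differed by 0.52 (edgeR adjusted p = 0.269).

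4930590L14Rik lies on the chromosome that carries the transgene, and where on it the transgene sits was not analysed here. Within 1 Mb of it were 15 annotated genes, of which 5 passed the filter, with 4930590L14Rik itself among these 5. Gm6214 was listed at 0 in WT and had 0.108 CPM in hTau and 0.0921 CPM in CgA-KO/hTau, and it passed the filter only through these groups, so it is given with no test against WT. Unc5c, a netrin receptor gene, had 53.9, 34.9 and 35.4 CPM in WT, hTau and CgA-KO/hTau and was lower than in WT in both, by -0.62 (edgeR adjusted p = 0.00866) and -0.61 (adjusted p = 0.012). Between the 2 transgenic genotypes 0 of the 5 were called by edgeR, DESeq2 or limma voom, where edgeR called 9.72% of all genes. At an unadjusted p under 0.05, 1 was higher.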

How the data were processed

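Poly-A RNA of prefrontal cortex was sequenced from 17 mice. The authors deposited 1 table of raw counts per gene. The submitters' processing notes name FastQC, Trimmomatic 0.39, STAR 2.7.10b, StringTie 1.3.6, DESeq2 1.42.0 and mm10, and strand settings and the handling of reads that match several genes are not given in the sources used here. Gene identifiers were matched to GENCODE M21 without their version, which found 52029 of 56953. The members and all gene and marker lists were chosen with earlier results of these data known.

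Counts were tested with edgeR 4.0.16 (TMM scaling, filterByExpr by genotype, quasi-likelihood test, 1 mean per genotype, all 17 libraries in 1 fit), with Benjamini-Hochberg adjustment over 23062 genes and a call at an adjusted p under 0.05. On simulated counts for CgA-KO/hTau minus hTau with 200 genes changed by a log2 of 2, edgeR recovered 169 and made 11 false calls among 22609 genes. That change is larger than those of the members in this comparison. The simulated libraries also had no differences in tissue content or by Ddx3y. Recovery and false calls under those conditions were not tested. Alternatives were DESeq2 1.42.0, limma voom 3.58.1, other scalings and filters, covariates, a replicate block and leaving out each library. Classes by Ddx3y at 1 CPM and a neuron score were added after the data were seen. Single values were compared by exact permutation tests, which were two-sided. Total counts ran from 8838334 to 227651681, so WT replicate 4 limits low genes most.

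Named genes were the members, Chga, Mapt, Sprn and Rpsa, called or nearest genes within 1 Mb of Prnp, called genes of each list with the smallest p, and the 5 genes most like Prnp or Lamr1-ps1. Ncam1 and the genes on chromosomes 3 and 14 were named after their values were seen. The paper reports 3 males in each genotype and females for the rest, and 3 libraries of each genotype had Ddx3y. Sex is not given for each library in the sources used here.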

Additional observations from a re-analysis of the deposited data

Results flagged for a closer look

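Mapt had 2 libraries far from the rest of their genotype, WT replicate 4 at 199 CPM, the lowest of WT and the shallowest library, and hTau replicate 3 at 952 CPM, the highest of hTau. Their gaps to the nearest library exceeded Dixon's 95% critical value, which chance does in about 1 of 20 groups, and 24 groups were examined.

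The difference between CgA-KO/hTau and hTau differed between libraries with Ddx3y at 1 CPM or more and the others, by the interaction term in edgeR, a split added after the data were seen and called for 2687 of 23062 genes. On the log2 scale the first class minus the other was -0.67 for Prnp, -0.79 for Slc23a2, -0.84 for Sprn and 0.69 for Rassf2.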

How the results depend on the processing

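Each result was recomputed under up to 32 alternatives. Lamr1-ps1 was lower in CgA-KO/hTau than in hTau under all 29 that gave a value (log2 difference -1.17 to -0.76, adjusted p 2.04e-05 to 0.324), and requiring at least 10 counts in every library removed it. Its ratio to Prnp kept its direction under all 14. Prnp and Slc23a2 were lower in CgA-KO/hTau under all 30 (adjusted p 0.000619 to 0.623 and 0.00125 to 0.499), but neither call was firm. The causes were not tested.

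Deviations of same-numbered libraries from their genotype means correlated at r of -0.232 to 0.437, not above 0.1 in every pair, so the numbers were not taken to pair mice, although libraries 1 to 3 share Ddx3y. With a replicate block, Prnp was -0.45 (adjusted p = 0.0913), Slc23a2 -0.57 (0.0968) and Lamr1-ps1 -0.99 (0.0494), genes called over all genes were 660, 654 and 614 (hTau minus WT, CgA-KO/hTau minus hTau, CgA-KO/hTau minus WT, the order used from here), and calls within 1 Mb of Prnp were 0 for CgA-KO/hTau minus hTau and 1 for CgA-KO/hTau minus WT.

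Summing the most similar libraries gave -0.43 for Prnp (adjusted p = 0.141), -1.02 for Lamr1-ps1 (0.0751) and -0.53 for Slc23a2 (0.156), with 430, 159 and 571 genes called and 0 within 1 Mb for CgA-KO/hTau minus hTau. With the striatum score, Prnp was 0.93, -0.28 and 0.65, Slc23a2 -0.05, -0.35 and -0.4, and Rassf2 0.79 and 0.77 against WT, with 3510, 987 and 4927 genes called and 8 and 7 within 1 Mb against WT. The score did not overlap between hTau and WT, so the values of hTau minus WT with it are extrapolated. With the neuron score, CgA-KO/hTau minus hTau was -0.27 for Prnp (adjusted p = 0.121), -0.32 for Slc23a2 (0.163) and -0.06 for Rassf2, with 2722 and 952 genes called in the first 2 comparisons and 6 within 1 Mb for hTau minus WT.

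In libraries with Ddx3y, CgA-KO/hTau minus WT was 0.64 for Prnp and -0.53 for Slc23a2, CgA-KO/hTau minus hTau was 0.5 for Rassf2, 128, 6713 and 4474 genes were called, and 0, 9 and 6 within 1 Mb. In the others, CgA-KO/hTau minus hTau was -0.14 for Prnp, -0.76 for Lamr1-ps1, -0.22 for Rassf2 and -0.21 for Slc23a2, CgA-KO/hTau minus WT was 1.17 for Prnp and 0.5 for Slc23a2, hTau minus WT was 0.64 for Rassf2, 190 and 718 genes were called in the last 2 comparisons, and 7 and 0 within 1 Mb in the first 2.

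DESeq2 called 2396, 3958 and 2564 genes, with 3 within 1 Mb for CgA-KO/hTau minus hTau, and moved the median of all genes there from 0.026 to 0.13. Limma voom called 3967, 5229 and 2458, with 8 and 6 within 1 Mb in the first 2, and 47.1% of calls higher in place of 33.1% for hTau minus WT and 45.5% in place of 56.6% for CgA-KO/hTau minus hTau. Fits of only the 2 genotypes compared called 2275 and 266 against WT. Calls within 1 Mb for CgA-KO/hTau minus WT were 1 with DESeq2 size factors, no filter, at least 10 counts, 2 genotypes alone or a 500 kb window. For CgA-KO/hTau minus hTau they were 2 with at least 10 counts and 2 at an unadjusted p under 0.01 and a log2 beyond 0.5.

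Leaving out 1 library in turn gave -0.53 to -0.38 for Prnp and -0.68 to -0.49 for Slc23a2 (CgA-KO/hTau minus hTau), 632 to 1658, 1019 to 3822 and 627 to 2099 genes called, and 0 to 3 and 1 to 3 within 1 Mb in the last 2 comparisons. WT replicate 5 gave the fewest calls against WT (632 and 627), CgA-KO/hTau replicate 2 the fewest between the carriers and replicate 4 the most.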
